A study of Rattus norvegicus with 12 samples.

Results

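The 10 genes described here are markers of microglia, read in bulk RNA-seq libraries of cultured rat OPCs (oligodendrocyte precursor cells). They were taken by symbol from the deposited count table, in which they fill 10 of 30562 gene rows, and each of the 10 symbols was found. The OPCs came from the cerebral cortices of newborn wild-type Sprague-Dawley rats. Mild-hypo-OPCs were kept at an FiO2 (fraction of inspiratory oxygen) of 5% (6 libraries), and standard OPCs were kept in room air (6 libraries). The labels give an exposure of 6 hours, whereas the study's methods describe 6 days for mild hypoxia. Both groups were shaken free of microglia before seeding, and the remaining microglia and astrocytes were left behind on uncoated dishes, so the cultures were meant to hold few microglia. The labels do not say whether the libraries of a group came from separate cultures, and the study states fewer biological replicates per group for this experiment than there are libraries. Some libraries may therefore share a culture, n counts libraries throughout, and the p-values measure only the spread between libraries and may be too small.

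Microglia are the resident macrophages of the brain. They depend on signalling through the CSF1 receptor and on the myeloid transcription factor PU.1, they survey the tissue through receptors for nucleotides, chemokines and lipids, and they are the main brain source of the complement starter C1q. In glial cultures they grow on top of the astrocyte layer and are the usual contaminant of shaken OPC preparations. In bulk RNA, a change in the number of microglia and a change in the RNA of a gene per microglial cell cannot be told apart.

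Total counts ran from 4111669 to 9022324 in mild-hypo-OPC libraries and from 1356079 to 2797513 in standard OPC libraries, so depth and condition cannot be told apart. The OPC markers were present in every library. All 11 OPC marker genes found in the table passed the filter, and their sum lay between 3830 and 5250 CPM (counts scaled to a common library size with edgeR's TMM factors). The 10 microglial markers together took 345 to 623 counts in a mild-hypo-OPC library and 44 to 173 counts in a standard OPC library. Scaled for depth, their sum averaged 78.6 ± 12.4 CPM under mild hypoxia against 60.9 ± 11.1 CPM in room air (SD, n = 6 each), a ratio of group means of 1.29, and the ranges overlapped (65.0 to 96.3 and 40.5 to 71.3 CPM). With library size only, the ratio was 1.74.

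The marker genes were called in both directions. Genes were compared with edgeR's quasi-likelihood test over the 8938 genes with more than 10 CPM in at least 1 library, and log2 fold changes are those of mild-hypo-OPCs relative to standard OPCs. Of the 10 markers, 7 passed this filter, and Csf1r, C1qb and Ctss were called higher and Tyrobp lower under mild hypoxia (adjusted p under 0.05). C1qa, C1qc and Trem2 were tested and not called, and Aif1, Cx3cr1 and Itgam lay below the filter. Among all genes tested, 7.0% were called higher and 17.0% lower (24.0% in either direction), and the median log2 fold change was -0.00306. Ctss, C1qa and C1qc passed the filter only through mild-hypo-OPC libraries and Tyrobp only through standard OPC libraries, so the genes that passed do not stand for the whole set. Without the filter all 10 were tested, and Csf1r, C1qb, Ctss and Tyrobp were again the genes called, against 4.22% of 17391 genes called higher and 8.72% called lower.

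**Figure D1:**
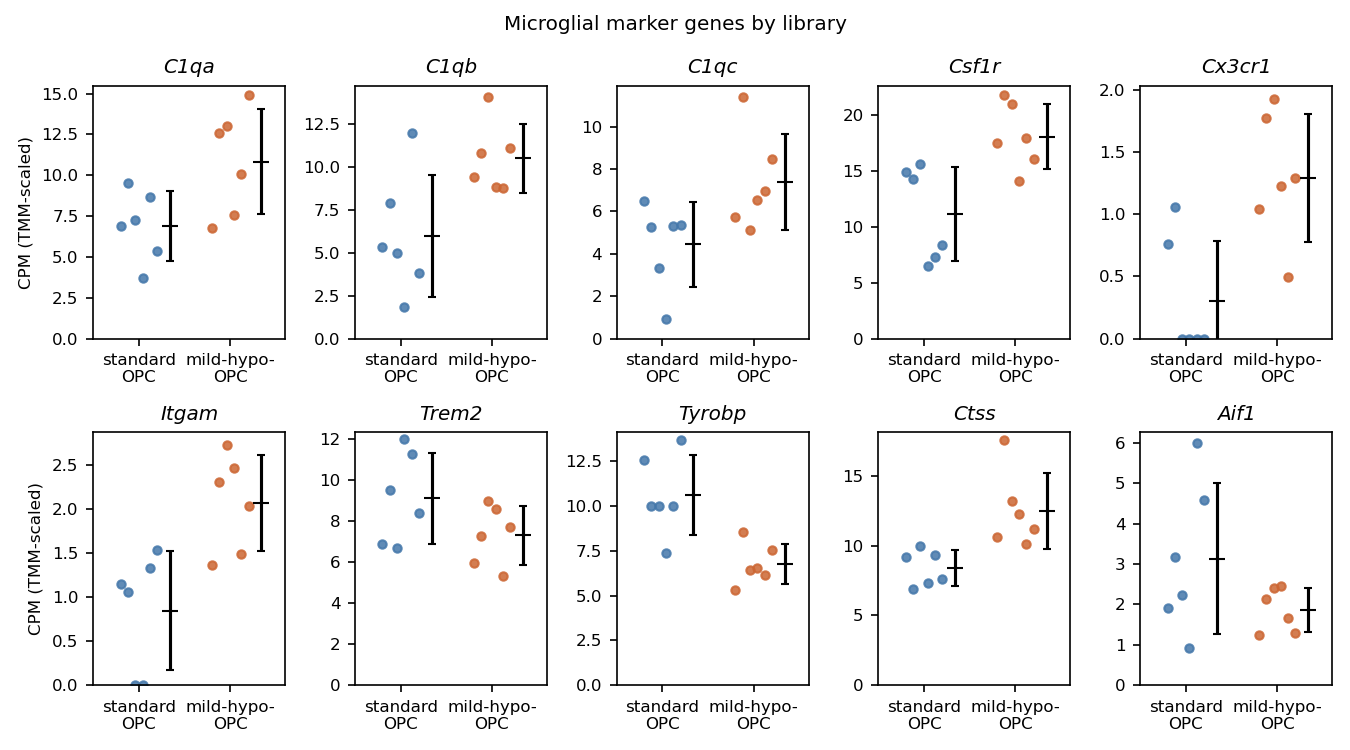
CPM (TMM-scaled) of each of the 10 marker genes, 1 point per library, for standard OPCs and mild-hypo-OPCs, with the mean ± SD (n = 6) beside the points. Ctss is the gene whose libraries do not overlap between the groups, and Tyrobp, Trem2 and Aif1 have their higher mean in standard OPCs.

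C1qa, C1qb and C1qc encode the A, B and C chains of C1q, the recognition molecule that starts the classical complement cascade, and neighbour one another in the RefSeq annotation of the rat genome. C1qb (ENSRNOG00000012749) had from 8.79 to 14.1 CPM under mild hypoxia (median 10.1), compared with 1.84 to 12 CPM in room air (median 5.17). Every mild-hypo-OPC library lay above the mean of standard OPCs, while 1 of the 6 lay above the highest standard OPC library, which was replicate 5. The log2 fold change of C1qb was 0.76 ± 0.26 (SE; edgeR adjusted p = 0.0355). It rested on 395 counts in mild-hypo-OPCs and 63 in standard OPCs. Leaving out standard OPC replicate 1, 3, 4 or 6, or replicate 2 or 3 of mild-hypo-OPCs, ended the call (edgeR adjusted p from 0.0503 to 0.0813), while the estimate stayed between 0.64 and 0.78 in those fits.

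C1qa (ENSRNOG00000012807) had from 6.78 to 14.9 CPM under mild hypoxia (median 11.3), compared with 3.68 to 9.51 CPM in room air (median 7.05). Its log2 fold change was 0.59 ± 0.26 (SE; edgeR adjusted p = 0.103), and 4 of 6 mild-hypo-OPC libraries exceeded all standard OPC libraries. C1qc (ENSRNOG00000012804) had from 5.14 to 11.4 CPM (median 6.76) against 0.92 to 6.5 CPM (median 5.30). The change of C1qc was 0.61 ± 0.30 (SE; edgeR adjusted p = 0.143), again with 4 of 6 libraries above the standard OPC range. C1qa was called without mild-hypo-OPC replicate 1 (0.74, edgeR adjusted p = 0.0286). Thus 1 of the 3 chains was called, and the 3 estimates lay within 1 standard error of each other. Standard OPC replicate 4, the shallowest library, was the lowest for each chain, with 4, 2 and 1 counts for C1qa, C1qb and C1qc.

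The 250 bases before the C1qb start site are shown because C1qb had the largest increase among the marker genes that passed the filter, and because PU.1, on which microglia depend, binds purine-rich sites around a GAGGAA core. The sequence is from RefSeq on build GRCr8, chr5:154407828-154408077, minus strand, and capitals mark GAGGAA on either strand (TTCCTC is its reverse complement).
C1qb: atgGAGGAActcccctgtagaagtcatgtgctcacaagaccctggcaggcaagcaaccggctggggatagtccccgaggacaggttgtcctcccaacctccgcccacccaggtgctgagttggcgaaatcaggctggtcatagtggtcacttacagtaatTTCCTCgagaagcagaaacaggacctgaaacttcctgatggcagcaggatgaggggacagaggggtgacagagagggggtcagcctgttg
The matches began 247 and 90 bases before the start site. RefSeq promoters were matched for 7 of the 10 marker genes, and GAGGAA was found on either strand in 5 of them (C1qb, Csf1r, Ctss, Itgam and Trem2), against 23.3% of 33469 promoters. The longer GAGGAAGT, which holds GAGGAA, was found in 1 of the 7 (Ctss) and in 2.04% of all promoters, and TGACTCA, the AP-1 motif, in 0 of the 7 and in 4.05%. These motifs were chosen with the sequences in view, and a match says only that the letters occur in the window.

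Csf1r (ENSRNOG00000018414) encodes the receptor for CSF1 and IL-34, which microglia need to survive. It had from 14.1 to 21.8 CPM under mild hypoxia (median 17.7), compared with 6.44 to 15.6 CPM in room air (median 11.4). Of the mild-hypo-OPC libraries, 5 of 6 lay above all standard OPC libraries. The log2 fold change was 0.61 ± 0.19 (SE; edgeR adjusted p = 0.0231). Among standard OPCs, the level of Csf1r was 14.3 to 15.6 CPM in replicates 1 to 3 and 6.44 to 8.40 CPM in replicates 4 to 6, a division noticed after the values were seen. Replicates 1 to 3 also had the larger totals of the group, 2240615 to 2797513 counts against 1356079 to 1664627, and the part of depth in this difference was not tested. Without standard OPC replicate 4, 5 or 6 the call of Csf1r was lost (adjusted p = 0.0529, 0.0629 and 0.0568 from edgeR). Its estimate was 0.13 with log2 total count in the fit. Library totals did not overlap between the groups, so that fit cannot separate depth from condition.

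The ligands of this receptor were measured too. Csf1, which oligodendrocyte lineage cells and astrocytes also make, averaged 35.4 ± 4.50 CPM under mild hypoxia against 27.4 ± 7.90 CPM in room air (SD, n = 6 each), with a log2 fold change of 0.37 ± 0.15 (SE; edgeR adjusted p = 0.0771). Il34, the other ligand, had 7 counts over all mild-hypo-OPC libraries and 1 count over all standard OPC libraries, too few for a comparison.

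Cx3cr1 (ENSRNOG00000018509), the receptor for the chemokine fractalkine, was at the limit of detection. Each mild-hypo-OPC library held 3 to 12 counts, which is 0.498 to 1.93 CPM, whereas 4 standard OPC libraries held 0 counts and the other two 2 counts each. A count of 0 allows up to 3 counts, which is 1.65 to 2.74 CPM in the 4 standard OPC libraries at 0 and covers much of the range of mild-hypo-OPCs. Over the summed counts, 48 against 4, the ratio of the rates was 3.23 (95% exact binomial interval 1.18 to 12.3, for counting error only). Without the filter its log2 fold change was 1.67 ± 0.69 (SE; edgeR adjusted p = 0.111). Cx3cl1, which encodes fractalkine and is made mainly by neural cells, passed the filter. It averaged 13.6 ± 1.23 CPM under mild hypoxia against 9.14 ± 1.95 CPM in room air (SD, n = 6 each), with no overlap of the libraries and a log2 fold change of 0.60 ± 0.16 (SE; edgeR adjusted p = 0.00901), which was 0.20 and not called after thinning to the smallest total (adjusted p = 0.771).

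Itgam (ENSRNOG00000019728) encodes integrin αM, the CD11b chain of complement receptor 3, and was also rare. Each mild-hypo-OPC library held 9 to 17 counts (1.36 to 2.73 CPM) and each standard OPC library 0 to 3 counts (0 to 1.53 CPM), with 2 standard OPC libraries at 0. The ratio of the summed rates was 2.24 (95% exact binomial interval 1.12 to 5.10, for counting error only), from 75 and 9 counts. Without the filter the log2 fold change was 1.20 ± 0.51 (SE; edgeR adjusted p = 0.121). Its partner chain Itgb2, named after its values were seen, averaged 3.48 ± 1.23 CPM under mild hypoxia against 1.5 ± 1.18 CPM in room air (SD, n = 6 each), with a log2 fold change of 1.16 without the filter (edgeR adjusted p = 0.0617).

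Tyrobp (ENSRNOG00000020845) encodes DAP12, the adaptor that carries the signal of TREM2 and other myeloid receptors, and was the marker gene called lower. It had from 5.32 to 8.53 CPM under mild hypoxia (median 6.49), compared with 7.36 to 13.7 CPM in room air (median 10). Of the standard OPC libraries, 5 of 6 lay above all mild-hypo-OPC libraries. The log2 fold change was -0.69 ± 0.19 (SE; edgeR adjusted p = 0.0112). This call was kept whichever of the 12 libraries was left out and was lost with library size only, where the change was -0.26 (edgeR adjusted p = 0.262).

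Trem2 (ENSRNOG00000013578), the lipid-sensing receptor that pairs with DAP12, had from 5.31 to 8.99 CPM under mild hypoxia (median 7.51), compared with 6.67 to 12 CPM in room air (median 8.96). The ranges overlapped, with 3 standard OPC libraries above all mild-hypo-OPC libraries. Its log2 fold change of -0.28 was not called (SE 0.21, edgeR adjusted p = 0.353), and it was 0.14 with library size only.

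Ctss (ENSRNOG00000021157) encodes cathepsin S, a lysosomal protease that microglia also secrete. It had from 10.1 to 17.6 CPM under mild hypoxia (median 11.8), compared with 6.87 to 10 CPM in room air (median 8.40). It was the only one of the 10 marker genes whose groups did not overlap in CPM. Such separation was found in 2.94% of all genes tested with mild-hypo-OPCs above and in 5.40% with standard OPCs above. The log2 fold change was 0.55 ± 0.19 (SE; edgeR adjusted p = 0.0398). With limma-voom it was 0.49 and was not called (adjusted p = 0.103), and the call also ended when standard OPC replicate 2, 4, 5 or 6, or replicate 2 or 3 of mild-hypo-OPCs, was left out (edgeR adjusted p from 0.0540 to 0.0849). The bases before the Ctss start site are shown because this promoter held the longer GAGGAAGT, with its GAGGAA core 15 bases before the start site on the opposite strand. The sequence is from RefSeq on build GRCr8, chr2:185775146-185775395, plus strand, with the core in capitals.
Ctss: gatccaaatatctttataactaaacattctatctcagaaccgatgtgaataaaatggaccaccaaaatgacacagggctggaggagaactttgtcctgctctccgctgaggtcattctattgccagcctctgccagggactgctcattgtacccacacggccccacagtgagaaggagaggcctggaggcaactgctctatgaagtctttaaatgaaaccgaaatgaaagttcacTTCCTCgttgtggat

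Aif1 (ENSRNOG00000000853) encodes IBA1, the calcium- and actin-binding protein used to stain microglia. Each mild-hypo-OPC library held 7 to 15 counts (1.25 to 2.46 CPM, median 1.90) and each standard OPC library 1 to 9 counts (0.92 to 6.00 CPM, median 2.7). The summed counts were 68 and 31, a ratio of rates of 0.591 (95% exact binomial interval 0.381 to 0.935, for counting error only). Without the filter its log2 fold change was -0.70 ± 0.38 (SE; edgeR adjusted p = 0.259). Therefore Aif1 and Itgam, which are both used to identify microglia, had estimates of opposite sign and neither was called.

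Ratios of counts within a library do not depend on the scaling factors, and 5 of them were formed after the values were seen. The number of Csf1r counts per Tyrobp count was 2.12 to 3.29 under mild hypoxia, with a median of 2.74, compared with 0.611 to 1.56 in room air, with a median of 1.03. The summed counts of the 3 C1q chains per Tyrobp count reached 3.50 to 5.03 under mild hypoxia compared with 0.875 to 2.60 in room air. Ctss per Tyrobp was 1.49 to 2.06 compared with 0.556 to 1. These 3 ratios did not overlap between the groups, and they share Tyrobp as the denominator. Csf1r, C1qb and Ctss had been called higher and Tyrobp lower in the same libraries, so the choice of these ratios favoured separation. How often ratios of other genes separate was not computed. In contrast, Trem2 per Tyrobp overlapped (0.854 to 1.4 and 0.545 to 1.62), as did C1q per Csf1r (1.25 to 2.15 and 1 to 3.55). Tyrobp counts were therefore fewer relative to Csf1r, C1q and Ctss in every mild-hypo-OPC library than in any standard OPC library.

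**Figure D2:**
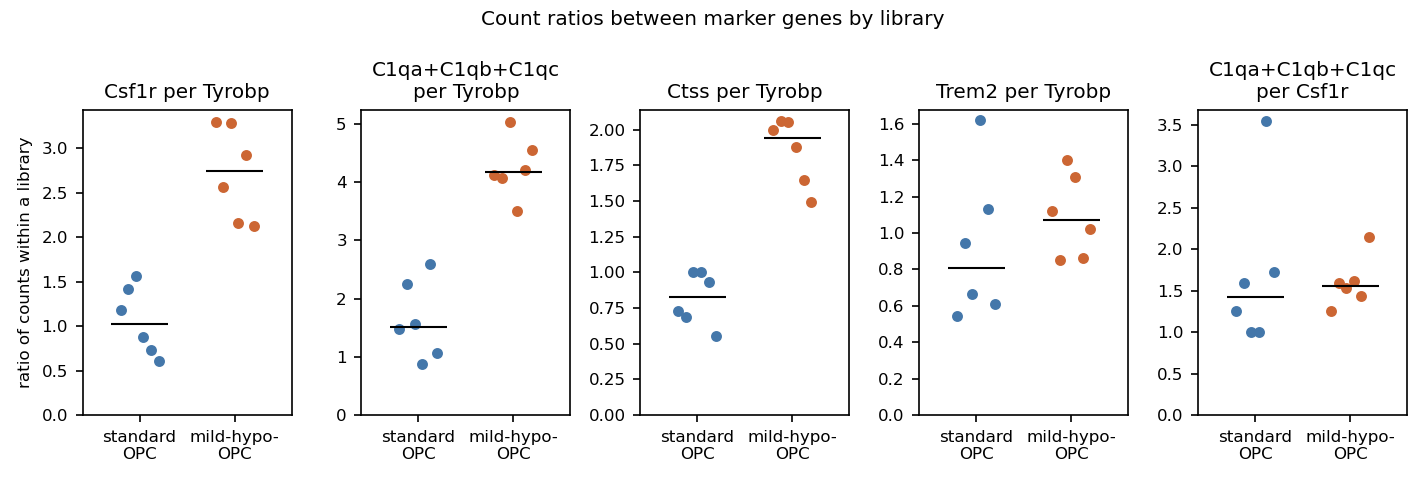
Ratios of raw counts between marker genes within each library, 1 point per library with the group median as a line, for standard OPCs and mild-hypo-OPCs. The ratios of Csf1r, C1q and Ctss to Tyrobp do not overlap between the groups, whereas Trem2 per Tyrobp and C1q per Csf1r do.

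Scaling and depth moved the sizes of these differences. With upper-quartile scaling Csf1r, C1qb and Ctss were called higher and Tyrobp lower, as with TMM. With library size only, which put the median over all genes at 0.43, 5 of the 7 marker genes tested were called higher (Csf1r, C1qa, C1qb, C1qc and Ctss) and 0 lower, against 61.7% of all genes called higher and 4.53% lower. After every library was thinned to the smallest total, in a single random draw, 0 marker genes were called in either direction by edgeR. Over all genes, 1.83% were then called higher and 6.02% lower. The log2 fold changes of Csf1r, C1qb, Ctss and Tyrobp after thinning were 0.54, 1.22, 0.97 and -0.44. Adding log2 total count to the fit left 0 called as well, and over all genes 0 higher and 43 lower. The estimates of C1qa, C1qb, C1qc and Ctss were then 1.08, 0.77, 0.86 and 0.76. Those of Csf1r, Tyrobp and Trem2 were 0.13, -0.45 and 0.37. Depth differed between the groups without overlap, so these estimates cannot tell depth from condition.

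Marker genes of other cell types were summed as well. Genes of neurons summed to 293 to 330 CPM in mild-hypo-OPCs and 221 to 262 CPM in standard OPCs. Much of this difference came from Tubb3 (means 98.9 and 59.4 CPM), while Dcx had 106 and 102 CPM. Of 8 neuron genes tested 2 were called higher, 0 lower and 6 were not called. Over all genes tested, 7.0% were called higher. Genes of endothelial and mesenchymal cells summed to 28.9 to 44.6 and 18.4 to 28.2 CPM, nearly all of it from Tagln (26.1 to 41.9 and 15.6 to 26 CPM), while 4 of the 14 genes in the table were at 0 in every library. Genes of astrocytes summed to 877 to 1020 and 839 to 933 CPM. The part of these cells in the marker genes was not tested.

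**Figure D3:**
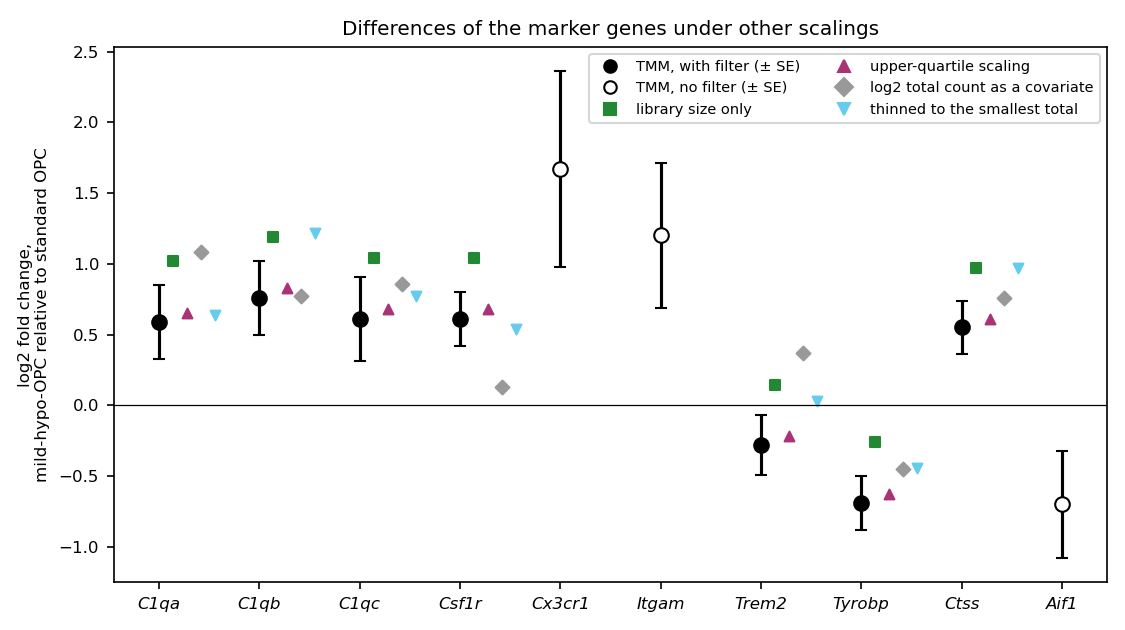
Log2 fold change of each marker gene in mild-hypo-OPCs relative to standard OPCs, from edgeR with TMM factors (circles ± standard error, open where the gene lay below the filter and the fit without the filter is shown) and under 4 other settings. The C1q chains, Csf1r and Ctss stay above 0 in each setting shown and Tyrobp stays below 0, while Trem2 changes sign.

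Gene span moved with the differences across all genes, and its part in the marker genes was not tested. Over 8540 tested genes with a RefSeq span, Spearman's rho between span and log2 fold change was 0.301. The fifth with the shortest spans (median 4550 bases) had a median log2 fold change of -0.26 and the fifth with the longest (median 130000 bases) 0.06. The 4 marker genes of longest span all had positive estimates (Cx3cr1 with 17755 bases, Csf1r with 26653, Ctss with 28125 and Itgam with 50452). The 3 with negative estimates were short (Tyrobp with 3936 bases, Aif1 with 5907 and Trem2 with 6583), as were the C1q chains, whose estimates were positive (C1qa with 2848 bases, C1qc with 3364 and C1qb with 5552).

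Other genes of homeostatic microglia were mostly too rare to test. Of 19 such genes 18 were in the table and 3 passed the filter, of which 1 was called higher and 0 lower, with a median log2 fold change of 0.15. For comparison, 24.0% of all genes tested were called in either direction. The called gene was Adgrg1, an adhesion receptor that OPCs also express, at 70.5 ± 4.26 CPM under mild hypoxia against 52.1 ± 3.92 CPM in room air (SD, n = 6 each) and a log2 fold change of 0.44 (edgeR adjusted p = 0.000697). Golm1, which encodes a Golgi membrane protein, averaged 12.1 ± 1.36 CPM under mild hypoxia against 12.6 ± 4.51 CPM in room air (SD, n = 6 each), a change of -0.10 (edgeR adjusted p = 0.740) that was 0.33 with library size only. Sall1, a transcription factor of microglial identity that other neural cells also use, had a change of 0.15 (edgeR adjusted p = 0.354). Below the filter, and named after their values were seen, the nucleotide receptor gene P2ry12 had 169 counts in mild-hypo-OPCs and 29 in standard OPCs, and Tmem119 had 22 and 4. P2ry12 had a log2 fold change of 0.68 without the filter (edgeR adjusted p = 0.172).

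Of 45 genes shared by myeloid cells 9 passed the filter, of which 2 were called higher and 0 lower, with a median log2 fold change of 0.25. The share called in either direction over all genes tested was 24.0%. Mpeg1, which encodes a pore-forming protein of macrophages, was called higher at 25.4 ± 3.08 CPM under mild hypoxia against 16 ± 6.52 CPM in room air (SD, n = 6 each) and a change of 0.59 (edgeR adjusted p = 0.0177). Cd68, which encodes a macrophage lysosomal glycoprotein, was called higher by 0.67 (edgeR adjusted p = 0.0251), a call lost without standard OPC replicate 3 or 5 (adjusted p = 0.0738 and 0.0663). Fcer1g, the Fc receptor γ chain, which like DAP12 is a short adaptor with an ITAM motif, had a change of -0.40 (edgeR adjusted p = 0.141), and the lysozyme gene Lyz2 had -0.15 (edgeR adjusted p = 0.416), and both estimates were above 0 with library size only (0.03 and 0.28). Spi1, which encodes PU.1, averaged 3.48 ± 1.06 CPM under mild hypoxia against 3.47 ± 1.5 CPM in room air (SD, n = 6 each), below the filter, with a change of 0.07 without it (edgeR adjusted p = 0.914). Ptprc, which encodes the leukocyte protein CD45, had -0.22 (edgeR adjusted p = 0.730). The oxidase subunit gene Cyba, also below the filter, was called lower without it, by -0.79 (edgeR adjusted p = 0.0252). After thinning to the smallest total the calls of Mpeg1 (0.67, edgeR adjusted p = 0.154), Cd68 (0.58, adjusted p = 0.358) and Adgrg1 (0.35, adjusted p = 0.183) were lost. Spi1, Ptprc and Cyba were named after their values were seen.

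The list of activated microglia had 12 of 26 genes tested, with 0 called higher and 4 lower and a median log2 fold change of -0.15. Over all genes tested, 17.0% were called lower. Whether this or any other list held more calls than genes at large was not tested. The 4 called genes were Cd9 (-0.60, edgeR adjusted p = 0.00122), Fth1 (-0.41, adjusted p = 0.00545), Spp1 (-0.50, adjusted p = 0.0361) and Cd63 (-0.31, adjusted p = 0.0489). None of these 4 calls was kept with library size only, where Cd9 was -0.16 (edgeR adjusted p = 0.269), Spp1 -0.07 (adjusted p = 0.728), Fth1 0.03 and Cd63 0.12. Cd9 and Cd63 encode tetraspanins, Fth1 the ferritin heavy chain and Spp1 osteopontin, and Cd9, Fth1 and Cd63 are also abundant in oligodendrocyte lineage cells. Without 1 library Spp1 lost its call in 7 of 12 fits (mild-hypo-OPC replicates 1, 3, 5 and 6 and standard OPC replicates 1, 2 and 5) and Cd63 in 10 of 12 (every library but standard OPC replicates 1 and 3). The cathepsin D gene Ctsd had a change of 0.03 (edgeR adjusted p = 0.764). Cd74, RT1-Da, RT1-Ba and RT1-Db1, genes of MHC class II presentation, were listed at 0 counts in every library. Markers of border macrophages and monocytes were absent or rare. Of 13 such genes in the table, 9 were at 0 in every library and 0 passed the filter, and their sum was at most 3.73 CPM in mild-hypo-OPCs and 6.87 CPM in standard OPCs. Mrc1 had the most counts among them, 53 in mild-hypo-OPCs and 17 in standard OPCs (means 1.38 and 1.7 CPM).

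Among ligands, adaptors and complement genes that act with the marker genes, 25 of 27 were in the table and 5 were tested, with 2 called higher and 1 lower. Besides Cx3cl1, these were Cd47 (0.30, edgeR adjusted p = 0.0260), the signal that restrains phagocytosis, and Cst3 (-0.93, adjusted p = 0.000243). Calls in either direction made up 24.0% of all genes tested. Cst3 encodes cystatin C, an inhibitor of cathepsin S and related proteases that many brain cells secrete. It averaged 664 ± 79.2 CPM under mild hypoxia against 1270 ± 338 CPM in room air (SD, n = 6 each). Cd47 lost its call without standard OPC replicate 4 (0.25, edgeR adjusted p = 0.0591) and after thinning (0.26, adjusted p = 0.401). Sirpa, the receptor of Cd47, had 0.15 (edgeR adjusted p = 0.394). C3, the central complement component, lay below the filter and was named after its values were seen. It had 80 counts in mild-hypo-OPCs and 3 counts in standard OPCs (2.15 ± 0.678 and 0.281 ± 0.438 CPM, SD, n = 6). The libraries did not overlap, and C3 was called higher without the filter (edgeR adjusted p = 0.00343). Each standard OPC library held 0 to 2 counts of C3, at the limit of detection. There, 3 counts are 1.13 to 2.74 CPM, which covers much of the range of mild-hypo-OPCs (0.922 to 2.66 CPM).

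**Figure D4:**
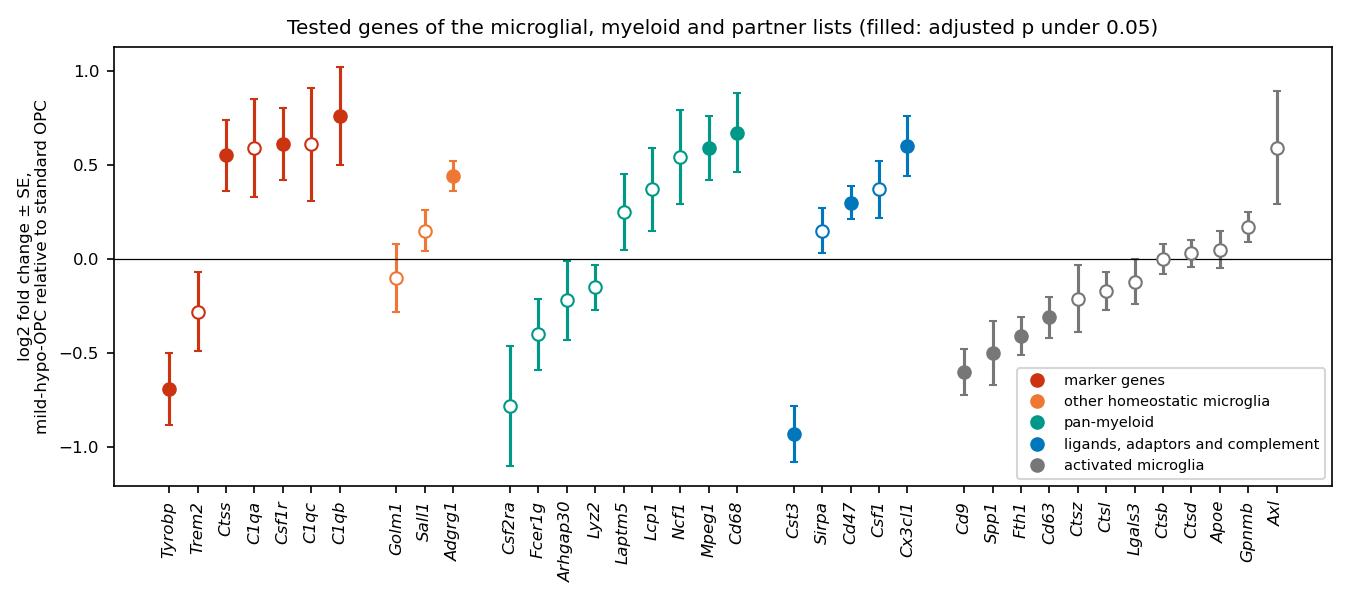
Log2 fold change ± standard error (edgeR) of every tested gene of the marker set and of the lists of homeostatic microglia, myeloid cells, ligands with adaptors and complement, and activated microglia, filled where the adjusted p was under 0.05. Of the 7 marker genes 3 are filled above 0 and 1 below, and the 4 filled genes of activated microglia all lie below 0. Over all genes tested, 17.0% were called lower and 24.0% in either direction.

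The marker genes were then compared across libraries within each group, over all pairs of genes with a mean of at least 10 counts. In mild-hypo-OPCs 9 genes gave 36 pairs, of which 32 had a positive Pearson r of log2 CPM, with a median of 0.449 and a range from -0.115 to 0.931. Over all pairs of the 8938 genes tested the median was -0.000357, and 50% were positive. In standard OPCs 6 genes gave 15 pairs, of which 10 were positive, with a median of 0.287 (range -0.822 to 0.938) against -0.00292 over all genes. Of 51 relations, 0 had an adjusted p under 0.05 in the two-sided exact permutation test, and 3 had an unadjusted p under that value. The smallest p that 6 libraries allow is 0.00139, which for 1 pair alone gives an adjusted p of 0.0708, so a single pair could not have passed.

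The largest r was between C1qa and C1qb in standard OPCs, at 0.938 (n = 6, exact permutation p = 0.00833, adjusted p = 0.354). Spearman's rho of this pair was 0.886 (exact permutation p = 0.0333, adjusted p = 0.425), and r was 0.898 without the 2 libraries farthest from the median of C1qa. The same pair had r = 0.692 in mild-hypo-OPCs (n = 6, exact permutation p = 0.119, adjusted p = 0.682), with rho = 0.714 (exact permutation p = 0.136, adjusted p = 0.811) and r = 0.614 without the 2 farthest libraries. In mild-hypo-OPCs Trem2 and Itgam had r = 0.931 (n = 6, exact permutation p = 0.0139, adjusted p = 0.354), with rho = 0.886 (exact permutation p = 0.0333, adjusted p = 0.425) and r = 0.749 without the 2 farthest libraries. C1qc and Tyrobp had r = 0.857 (n = 6, exact permutation p = 0.0292, adjusted p = 0.496), with rho = 0.714 (exact permutation p = 0.136, adjusted p = 0.811) and r = 0.937 without the 2 farthest libraries. In standard OPCs Trem2 had 11 to 18 counts per library, and its r was negative with each of the 5 other genes. With Csf1r the r was -0.822 (n = 6, exact permutation p = 0.0833, adjusted p = 0.682), with rho = -0.943 (exact permutation p = 0.0167, adjusted p = 0.425) and r = -0.407 without the 2 farthest libraries. With C1qb it was -0.0419. Without the 2 farthest libraries r was above 0 with C1qa (0.41) and C1qb (0.427).

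**Figure D5:**
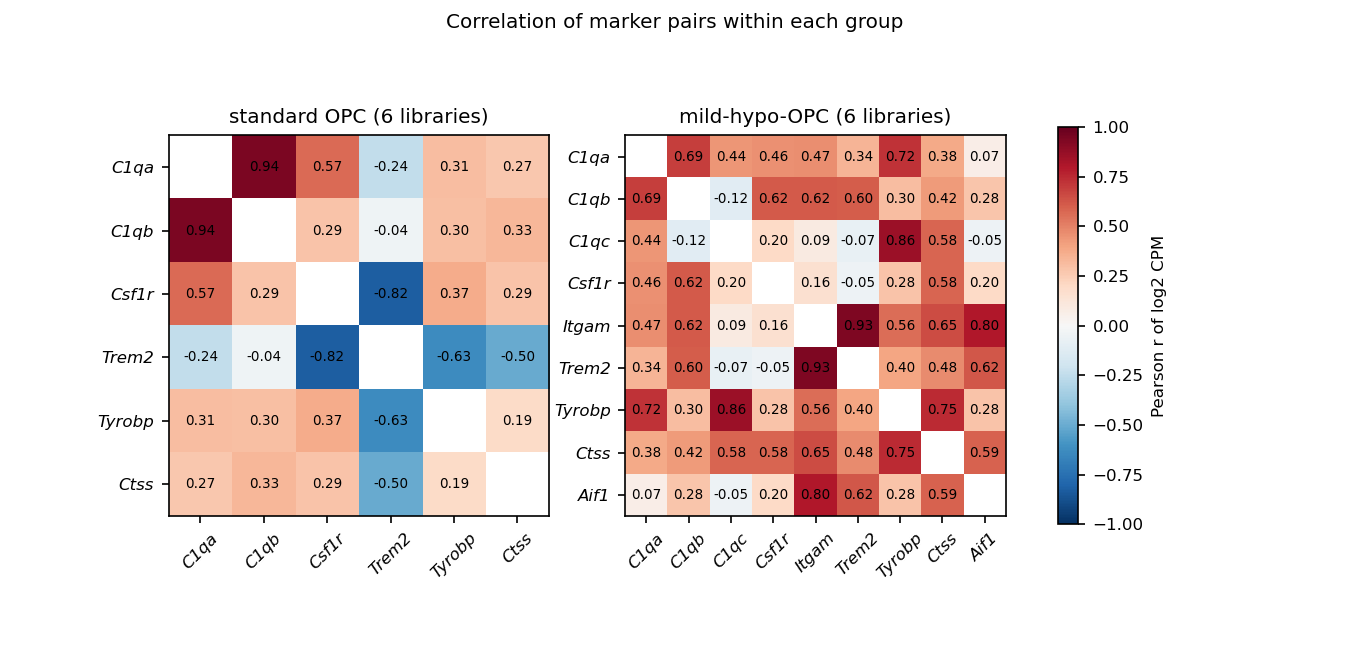
Pearson r of log2 CPM for each pair of marker genes with a mean of at least 10 counts, across the 6 standard OPC libraries (left) and across the 6 mild-hypo-OPC libraries (right). Most pairs are positive in mild-hypo-OPCs. In standard OPCs Trem2, with 11 to 18 counts per library, is negative with every other gene shown, from -0.822 to -0.0419.

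The spread between libraries was compared with counting error. The spread of counts around an equal rate was taken as chi-square per degree of freedom (1 where counting error alone acts). In standard OPCs it was 0.880 for C1qa, 0.322 for Ctss, 0.659 for Tyrobp and 0.903 for Trem2. For C1qc, C1qb and Csf1r it was 1.21, 2.87 and 2.29 there. Whether the negative r of Trem2 in standard OPCs holds more than counting error was not tested. In mild-hypo-OPCs the value was 6.59 for C1qa, 4.34 for C1qc, 3.62 for Ctss, 2.59 for Csf1r, 2.44 for C1qb, 1.9 for Trem2 and 1.3 for Tyrobp. At an equal relative spread this measure grows with the mean count, so it cannot compare the groups. C1qa had mean counts of 66 in mild-hypo-OPCs and 12.2 in standard OPCs. Its levels were 10.8 ± 3.23 and 6.88 ± 2.14 CPM (SD, n = 6 each). After thinning to the smallest total, the median r over pairs was -0.140 in mild-hypo-OPCs and -0.0388 in standard OPCs. The positive medians were thus not seen in that single random draw, and other draws were not made. Without standard OPC replicate 4, the library with the lowest summed level of the markers, the median in standard OPCs was -0.185.

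Genes outside the marker set were ranked by the mean over the 2 groups of their r (n = 6 libraries each) with the mean standardized level of the 7 marker genes that passed the filter. The 10 most alike were Ccdc107 (0.919), Ccdc91 (0.885), RGD735065 (0.879), Rhot1 (0.869), Cirbp (0.861), Abhd16a (0.855), Trim36 (0.854), Ctsb (0.852), Arl5a (0.849) and Slc4a2 (0.843). Of these, Ctsb, which encodes the lysosomal protease cathepsin B, was on a fixed list, that of activated microglia, and the myeloid lysosomal gene Laptm5 was next among the listed genes at rank 12 (0.823). The median over 8931 genes was 0.0181. Among the highest 5% of ranks were 4 of the 9 tested myeloid genes and 5 of the 12 tested genes of activated microglia. Within these lists the likeness ran from 0.0612 to 0.823 and from -0.512 to 0.852. The other homeostatic microglial genes had 0 of 3 there, with a median of -0.201. Ligands, adaptors and complement genes had 1 of 5. The OPC, astrocyte and neuron lists had 0 of 11, 0 of 9 and 0 of 8. These values describe 6 libraries per group that share depth and scaling.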

How the data were processed

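Bulk RNA-seq of cultured rat OPCs was analysed in 12 libraries, grouped by their labels. The authors trimmed reads with Trimmomatic 0.36, checked them with FastQC 0.11.9, used STAR 2.7.9a for alignment, with mRatBN7.2 as the reference, and RSEM 1.3.3 for quantification. The deposited values are raw counts, whole numbers, 1 row per Ensembl gene and not normalized. How the RSEM estimates were made whole is not given in the sources used here.

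From these counts, 8938 of 30562 genes were kept, those reaching over 10 CPM in any library, and differences were tested in R 4.3.3 with edgeR 4.0.16 (TMM factors, glmQLFit and glmQLFTest, Benjamini-Hochberg over all genes kept). Standard errors are those implied by the F statistic. The study's own method, limma-voom (here limma 3.58.1), and DESeq2 1.42.0 were alternatives, with other scalings, filters, thinning, log2 total count as a covariate, subsets of libraries and the replicate number as a block. Thinning was a single random draw, so values after thinning also carry the noise of that draw. Log2 CPM for correlations used a prior count of 2, and exact permutation used all 720 orders. Intervals and floors (3 counts) cover counting error only. Libraries of 1 group differed by more than sampling noise (chi-square per degree of freedom of at least 3.97), so none was taken as a repeat deposit of another; repeat preparations of 1 culture could differ as much. The fits were tested on simulated data.

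The marker genes and gene lists were chosen with earlier results of these data known. Named genes are the 10 markers, up to 4 called genes with the lowest p and 3 with the highest level per list, and the 10 genes most like the markers. All other named genes (Csf1, Il34, Itgb2, P2ry12, Tmem119, Spi1, Ptprc, Cyba, C3, Laptm5, Mrc1, Il1b, Tnf and the MHC class II genes) were chosen after their values were seen. Single OPC, astrocyte, neuron, endothelial and mesenchymal genes other than Tagln, Tubb3 and Dcx are not described. Symbols come from the deposited table, and spans and promoters from RefSeq tables of GRCr8 matched by symbol (95.5% of tested genes). Transcript lengths were not used, so levels are not compared between genes. Some genes are not reported here and were left out of the lists.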

Additional observations from a re-analysis of the deposited data

Results flagged for a closer look

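The ratio of summed C1q counts to Csf1r counts was 3.55 in standard OPC replicate 5, far from the other 5 libraries of its group, which lay between 1 and 1.73. It rested on 39 C1q counts and 11 Csf1r counts. Of 34 sets of 6 values examined in this way, 1 stood out, and chance alone would mark about 1 in 20.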

How the results depend on the processing

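Against 3 marker genes called higher and 1 lower, the counts were 5 and 0 with library size only (61.7% of all genes called higher). They were 1 and 0 in replicates 4 to 6 (6.48% higher, 15.7% lower). With at least 10 counts in every library they were 0 and 0, with 1 marker gene left to test. They were also 0 and 0 in 3 settings where fewer genes at large were called. These were replicates 1 to 3 (0.62% of all genes higher, 4.01% lower), log2 total count as a covariate (0% and 0.481%) and thinning (1.83% and 6.02%). Over the 12 fits without 1 library the number higher ran from 0 to 4 (4.91% to 9.22% of all genes higher). The number lower was 1 in each (13.1% to 18.7% of all genes lower). The number higher was 0 without standard OPC replicate 4 or 6 (5.22% and 5.24% of all genes higher). It was 1 without standard OPC replicate 5 or mild-hypo-OPC replicate 2 or 3 (4.91%, 6.87% and 7.35% of all genes higher). With the replicate number as a block 2 were called higher and 1 lower (6.4% and 16.5% of all genes), the call of Ctss being lost (0.55, edgeR adjusted p = 0.0583). The numbers did not pair the libraries, since same-numbered libraries deviated together with r from -0.276 to 0.296, 2 of 6 above 0.1, and 1 of 6 matched its own number best. The ratio of the summed CPM was 1.74 with library size only and 1.21 to 1.36 without 1 library. The median r over pairs became -0.14 (mild-hypo-OPCs) and -0.0388 (standard OPCs) after thinning, and ran from -0.185 to 0.352 in standard OPCs and from 0.306 to 0.558 in mild-hypo-OPCs without 1 library. The cause was not tested for any of these.

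Log2 fold changes turned sign with library size only for Trem2 (0.14), Golm1 (0.33), Fcer1g (0.03), Lyz2 (0.28), Fth1 (0.03) and Cd63 (0.12). With log2 total count as a covariate they did so for Trem2 (0.37), Sall1 (-0.24), Lyz2 (0.09), Cd9 (0.1), Fth1 (0.02), Cd63 (0.18), Sirpa (-0.02), Nfkbia (0.01) and Csf1 (-0.05). Trem2 was 0.03 after thinning, Lyz2 0.02 in replicates 1 to 3, and Golm1 0.12 in replicates 4 to 6 and 0.25 after thinning, and it ran from -0.23 to 0.04 (the latter without standard OPC replicate 2) without 1 library. Standard OPC libraries held at most 173 counts over all 10 marker genes, which limits what could be detected.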

Other observations

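Of a list of 12 inflammatory genes 1 passed the filter and 2 were at 0 in every library, and the summed level of the list was 15.3 to 19.7 CPM under mild hypoxia compared with 18.7 to 32.2 CPM in room air. The gene tested was Nfkbia, which encodes the NF-κB inhibitor IκBα. It averaged 13.2 ± 1.90 CPM under mild hypoxia against 19.7 ± 3.78 CPM in room air (SD, n = 6 each), with no overlap of the libraries and a log2 fold change of -0.54 ± 0.15 (SE; edgeR adjusted p = 0.0113). The call was lost with library size only (-0.11, edgeR adjusted p = 0.546) and after thinning (-0.50, adjusted p = 0.286). Il1b had 5 counts over all mild-hypo-OPC libraries and 1 count over all standard OPC libraries, and Tnf had 8 and 1, and both were named after their values were seen.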
